A study of Mus musculus with 24 samples.

Results

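The genes described here are Trp53, which encodes the transcription factor p53, and 31 genes listed as its targets or regulators. They are 32 of the 45706 genes in the deposited table. They were chosen by name from textbook knowledge of the p53 network, with earlier results of these data known. Whether p53 activates each of them in mouse cells was not tested. Each was found in the table and had enough counts to be tested. They fall into feedback on p53 (6 genes), growth arrest (7), cell death and autophagy (11), DNA repair (5) and metabolism (2), beside Trp53 itself. The RNA came from primary embryonic fibroblasts of the mouse (MEFs, cultured from dissociated embryo tissue) of strain C57B1/6 as the labels spell it. The cells were either cGAS KO, lacking the cytosolic DNA sensor encoded by Mb21d1, or WT. Both were cultured in 20% oxygen, and RNA was taken on days 33, 36 and 42, at passages 11, 12 and 14. The labels name 4 numbered samples per genotype and day, but the 4 differed by less than the sampling noise and were counted as 1 sample, which left 3 KO and 3 WT libraries, 1 on each day. How the KO cells were derived, and whether the days are separate cultures, is not given in the sources used here. The days serve as the replicates of a genotype, so each p-value measures the spread between these libraries alone, and that spread may be technical or that of a single line per genotype.

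p53 is held low in unstressed cells by the ubiquitin ligase Mdm2, whose own gene p53 activates. DNA damage, oxidative stress and an active Arf (from Cdkn2a) release p53 from Mdm2, and much of the change in p53 is in the stability of the protein and not in its mRNA. In MEFs, atmospheric oxygen and serial passage are known to engage the Arf and p53 pathway and to lead to senescence, a lasting growth arrest, while lines that escape often carry changes in p53 or Arf. For this reason the level of its targets is commonly read beside that of the Trp53 mRNA.

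p53 binds DNA at pairs of a half-site consensus of 10 letters, which reads the same on both strands. RefSeq promoters (build GRCm38.p6, 250 bases before to 50 bases after each start) were found for 25 of the 32 genes, with 31 promoters. A half-site match lay in 12 of these 31 promoters (38.71%), in 11 genes, against 8.36% of the 32851 promoters of the genome. No promoter of the 32 genes held a pair of half-sites within 13 bases of each other, which 24 promoters of the genome did. Only exact matches were counted and bases outside these promoters were not searched, so sites with a mismatch or elsewhere would be missed. The stretches shown are those of the 7 genes that hold a match and whose KO and WT libraries did not overlap, as described further on. Libraries did not overlap in 43.8% of the 32 genes and in 34.3% of all genes tested. Of the 7, Trp53 and Ckap2 were higher in KO and the others lower. Whether a match goes with a difference between genotypes was not tested. The half-site is in capitals.
Trp53: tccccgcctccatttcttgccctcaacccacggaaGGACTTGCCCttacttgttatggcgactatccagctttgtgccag
Mdm2: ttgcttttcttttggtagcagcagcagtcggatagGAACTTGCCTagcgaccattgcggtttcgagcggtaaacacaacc
Ccng1: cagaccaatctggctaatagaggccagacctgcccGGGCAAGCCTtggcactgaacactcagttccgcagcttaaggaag
Gadd45a: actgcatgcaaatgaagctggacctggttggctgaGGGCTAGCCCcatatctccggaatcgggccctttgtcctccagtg
Ckap2: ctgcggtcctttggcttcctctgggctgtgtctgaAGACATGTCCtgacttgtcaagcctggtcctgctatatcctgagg
Aen: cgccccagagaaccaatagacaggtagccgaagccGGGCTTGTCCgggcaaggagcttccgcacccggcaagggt
Polk: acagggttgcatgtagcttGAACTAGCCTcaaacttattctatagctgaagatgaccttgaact
These lie at chr11:69580249-69580328 (plus strand), chr10:117710900-117710979 (minus), chr11:40755427-40755506 (minus), chr6:67037403-67037482 (minus), chr8:22185978-22186057 (minus), chr7:78895902-78895976 (plus) and chr13:96519374-96519437 (minus). The first base of the match is at position -75 from the start of Trp53, -186 from that of Mdm2, -185 from that of Ccng1, -40 from that of Gadd45a and -203 from that of Ckap2. The match in Aen starts 10 bases after one RefSeq start and at position -121 from another, and that of Polk has it at position -231 from an internal start. In the remaining genes with a match, Bax, Ei24, Sesn1 and Ppm1d, the KO and WT libraries overlapped. A match is a description of the letters and not evidence that p53 was bound.

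The 6 libraries held 33636556, 25651250 and 36447639 estimated counts on days 33, 36 and 42 in KO cells, against 48717439, 47092611 and 35025184 in WT cells. Mb21d1, the targeted gene, stood at 0.24, 0 and 0.13 CPM (counts scaled to library size, with edgeR's TMM factors) in KO cells on days 33, 36 and 42, against 4.74, 4.08 and 4.81 CPM in WT cells, in accord with the labels. The 10 fibroblast markers summed to 50646 to 60783 CPM in KO and 55036 to 59379 CPM in WT, most of it from Fn1 and the collagens. Among the others, Dcn stood at 7.59 to 18.3 CPM in KO and 23.7 to 170 CPM in WT, Lum at 0.224 to 2.48 CPM in KO and 0.985 to 21.3 CPM in WT, and Pdgfra at 14.6 to 45.4 CPM in KO and 44.8 to 102 CPM in WT. None of the 10 passed edgeR's test, at a median log2 fold change of -0.66. DESeq2 called 4 lower in KO (Dcn, Pdgfra, Pdgfrb and Thy1), where it called 9.02% of all genes lower. Markers of other cells were low: 6 epithelial genes summed to 19.8 to 24.02 CPM in KO and 19.6 to 39.7 CPM in WT, and 7 endothelial genes to 7.45 to 12.8 CPM in KO and 15.5 to 15.9 CPM in WT. The 15 macrophage genes summed to 80.2, 10.3 and 7.86 CPM in KO cells on days 33, 36 and 42, against 177, 46.5 and 23.5 CPM in WT cells. Of these, 2 were at 0 in KO cells on day 36 (Fcer1g and C1qc) and 8 on day 42, among them Adgre1, Lyz2, C1qa, C1qb and C1qc, and none in WT cells. Others stayed above 0. Cd53 was at 4.60, 1.60 and 0.735 CPM in KO cells on days 33, 36 and 42, against 12.8, 10.8 and 12.5 CPM in WT cells. DESeq2 called Cd53 lower in KO (adjusted p = 0.00035) and edgeR did not (0.0607). Csf1r, Cd68, Ptprc and Cd14 stood at 1.27 to 2.08 CPM in KO cells on day 42. The genotypes also differ in sex-linked RNA: Xist stood at 465 to 640.3 CPM in KO and 0.057 to 0.363 CPM in WT. On the Y chromosome, Uty stood at 2.69 to 2.91 CPM in KO and 29.9 to 31.97 CPM in WT, Eif2s3y at 6.23 to 6.97 CPM in KO and 53.7 to 68.9 CPM in WT, Kdm5d at 6.76 to 7.32 CPM in KO and 33.5 to 43.7 CPM in WT, and Ddx3y at 38.3 to 45.0 CPM in KO and 122 to 166 CPM in WT. Mitochondrially encoded transcripts took 0.694 to 1.27% of counts in KO and 1.096 to 2.38% in WT, at a median log2 fold change of -1.16. None of the 13 passed edgeR's test, while DESeq2 called 7 of them lower in KO, against 9.02% of all genes. The sex-linked difference coincides with genotype in all 6 libraries and cannot be told apart from it. The part of each of these differences in the results for p53 targets was not tested. In bulk RNA, fewer cells of a type and less RNA per cell cannot be told apart.

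Across all 3 days, KO cells were compared with WT cells by edgeR's quasi-likelihood test with p-values adjusted over 17233 genes. Of the 32 genes, Dram1 rose in KO cells and Polk, Ercc5 and Ephx1 fell, while 28 did not pass the test. The 1 gene higher is 3.12% of the set, against 4.07% of all genes called higher, and the 3 genes lower are 9.38% against 4.65%, and the 4 together are 12.5% against 8.72%. On the log2 scale the median fold change of the 32 genes was -0.11, against -0.01 over all genes tested. A negative value was found in 21 of the 32 genes and in 8766 of the 17233. With library totals in place of TMM factors the medians were 0.0028 for the 32 genes and 0.107 over all genes. In 11 genes every KO library lay below every WT library, which is 34.4% of the set against 17.0% of all genes. These were Mdm2, Ccng1, Trp53inp1, Gadd45a, Sesn2, Fas, Eda2r, Aen, Polk, Ercc5 and Ephx1. In 3 genes, Trp53, Ckap2 and Dram1, every KO library lay above every WT library, which is 9.38% against 17.2%, and the 14 together are 43.8% against 34.3%. The calls depended on which library was left out: 0 of the 32 genes passed without KO day 36, KO day 42 or WT day 33, 2 (Ephx1 and Trp53inp1) without WT day 36, 4 without KO day 33 and 6 without WT day 42. Cell division genes differed along the same comparison, with 16 of them summing to 1292 to 1502 CPM in KO and 823 to 849 CPM in WT, and their part in the levels of the p53 targets was not tested.

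**Figure D1:**
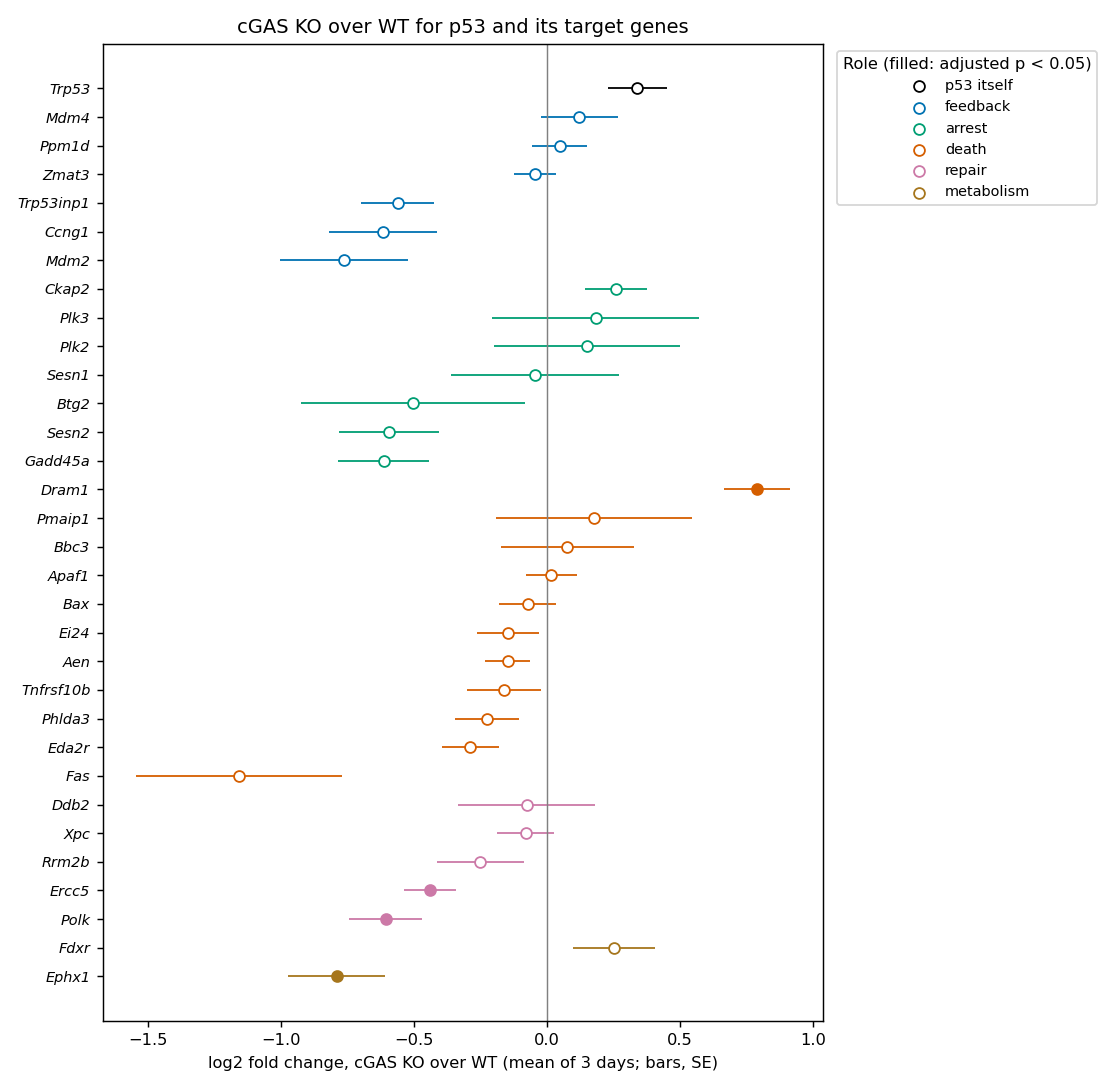
log2 fold change of cGAS KO over WT (x axis, with bars for the SE of the fit on 3 KO and 3 WT libraries) for the 32 genes, grouped by role and coloured by it. Filled points, Dram1 on the right and Polk, Ercc5 and Ephx1 on the left, passed an adjusted p of 0.05.

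**Figure D2:**
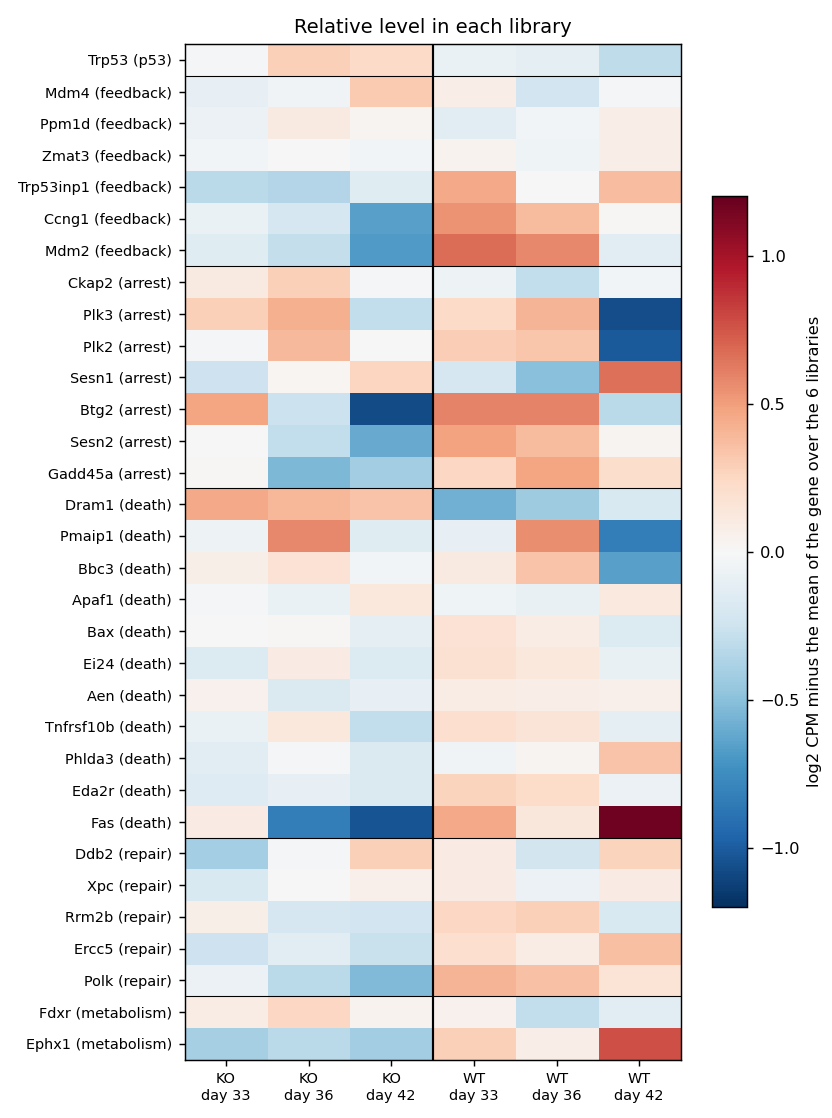
Level of each of the 32 genes in each library (3 KO columns left of 3 WT columns, days 33, 36 and 42 in each) as log2 (CPM + 0.1) minus the mean of that gene over the 6 libraries, so that the colour shows departures within a gene and not its abundance. Red is above and blue below that mean, and genes such as Mdm2, Ccng1 and Polk are lower in every KO column than in any WT column.

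The Trp53 message itself (chr11:69580359-69591873, plus strand, GENCODE M21 annotation of GRCm38) was at 74.9, 92.3 and 88.8 CPM in KO cells on days 33, 36 and 42, against 71.3, 69.6 and 61.3 CPM in WT cells. All KO libraries were above all WT libraries, by a margin that was narrow on day 33 and widened on days 36 and 42. The log2 fold change was 0.34 ± 0.11 (SE) and did not pass edgeR's quasi-likelihood test (adjusted p = 0.111). DESeq2 gave an adjusted p of 0.0661. Per length the message averaged 11.5 RPKM in KO and 8.54 RPKM in WT, and it ranked 12 of the 32 genes by mean RPKM. The p53 form of 387 coding residues held 58.9 ± 2.53% of the gene's transcript abundance in KO cells and 62.4 ± 6.69% in WT cells (SD, n = 3 each). The form of 381 coding residues, which ends in a different tail, held 25.9 ± 1.21% in KO and 26.1 ± 3.81% in WT. Neither share differed beyond the spread between libraries (exact two-sided permutation tests, p = 0.5 and p = 1.0, where the smallest value possible with 3 against 3 is 0.1).

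Of the feedback genes, Mdm2 (chr10:117688875-117710758, minus strand) encodes the ubiquitin ligase that degrades p53. It stood at 228.6, 207 and 158 CPM in KO cells on days 33, 36 and 42, against 401, 377 and 229.5 CPM in WT cells. KO libraries were lower on each day, and WT day 42 came down to the level of KO day 33. On the log2 scale KO over WT was -0.76 ± 0.24, with an adjusted p of 0.105 by edgeR's quasi-likelihood test. With day as a factor, which takes out differences between days that both genotypes share, edgeR gave an adjusted p of 0.0269, and DESeq2 gave 0.0179.

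Ccng1 (chr11:40748552-40755311, minus strand), cyclin G1, recruits protein phosphatase 2A to Mdm2 and had the highest level per length of the set, at 127 RPKM in KO and 183 RPKM in WT. It was at 953, 875 and 639 CPM in KO cells on days 33, 36 and 42, against 1456, 1310 and 1014 CPM in WT cells. The KO and WT libraries did not overlap, and in each genotype the level was lower on each later day. The log2 fold change was -0.62 ± 0.20 with an adjusted p of 0.112 by edgeR's quasi-likelihood test, 0.0382 with day as a factor and 0.0235 by DESeq2. On the 3 days taken singly the log2 difference was -0.61, -0.58 and -0.67, nearly the same each time.

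Trp53inp1 (chr4:11156431-11174379, plus strand) encodes a nuclear protein that promotes p53 phosphorylation and autophagy. It stood at 116, 114 and 131 CPM in KO cells on days 33, 36 and 42, against 199, 145 and 188 CPM in WT cells. Again the groups did not overlap, with the smallest gap on day 36. Its log2 fold change of -0.56 ± 0.14 lay just outside the threshold with edgeR's quasi-likelihood test (adjusted p = 0.0549, and 0.0522 with day as a factor). It lay inside the threshold with DESeq2 (adjusted p = 0.0051).

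Mdm4, Ppm1d and Zmat3, the other feedback genes, did not pass and had overlapping libraries. Mdm4 (chr1:132959484-133030561, minus strand), which blocks the transactivation domain of p53, was at 43.8, 45.7 and 58.4 CPM in KO cells, against 49.7, 40.0 and 46.3 CPM in WT cells, with a log2 fold change of 0.12 ± 0.14. Ppm1d, the Wip1 phosphatase that removes damage-induced phosphates, and Zmat3, an RNA-binding protein, had log2 fold changes of 0.05 and -0.05. By fold change alone, Mdm2, Ccng1 and Trp53inp1 had values of -0.56 to -0.76, and the other feedback genes had values of -0.05 to 0.12. None of the 6 feedback genes passed edgeR's test with genotype as the only term.

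The transcript shares of Mdm2 and Mdm4 were close in both genotypes. p53 is known to act on Mdm2 through an internal promoter, and the transcript of Mdm2 that held the largest share starts 736 bases downstream of the first start. It took 37.9 ± 3.31% of Mdm2 abundance in KO and 35.9 ± 2.22% in WT, although the annotation types it as a target of nonsense-mediated decay. The form of 489 coding residues that begins at the first start took 21.0 ± 0.93% in KO and 20.6 ± 2.01% in WT. The leading Mdm4 transcript held 65.9 ± 6.57% in KO and 64.0 ± 2.11% in WT (SD, n = 3 each). Over the whole set 69 transcripts that reached 10% of their gene in any library were tested, and 2 of them, minor forms of Apaf1 and Ephx1, reached the smallest exact p of 0.1. The leading transcript changed between libraries in Sesn1, Gadd45a, Bbc3 and Aen. The 298-residue form of Aen held 51.7, 44.9 and 39.6% in KO cells on days 33, 36 and 42, against 54.6, 50.3 and 34.6% in WT cells. Sesn1 had its 551-residue form at 66.6, 66.6 and 54.1% in KO cells on days 33, 36 and 42, against 45.8, 56.1 and 53.9% in WT cells (exact permutation p = 0.2).

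**Figure D3:**
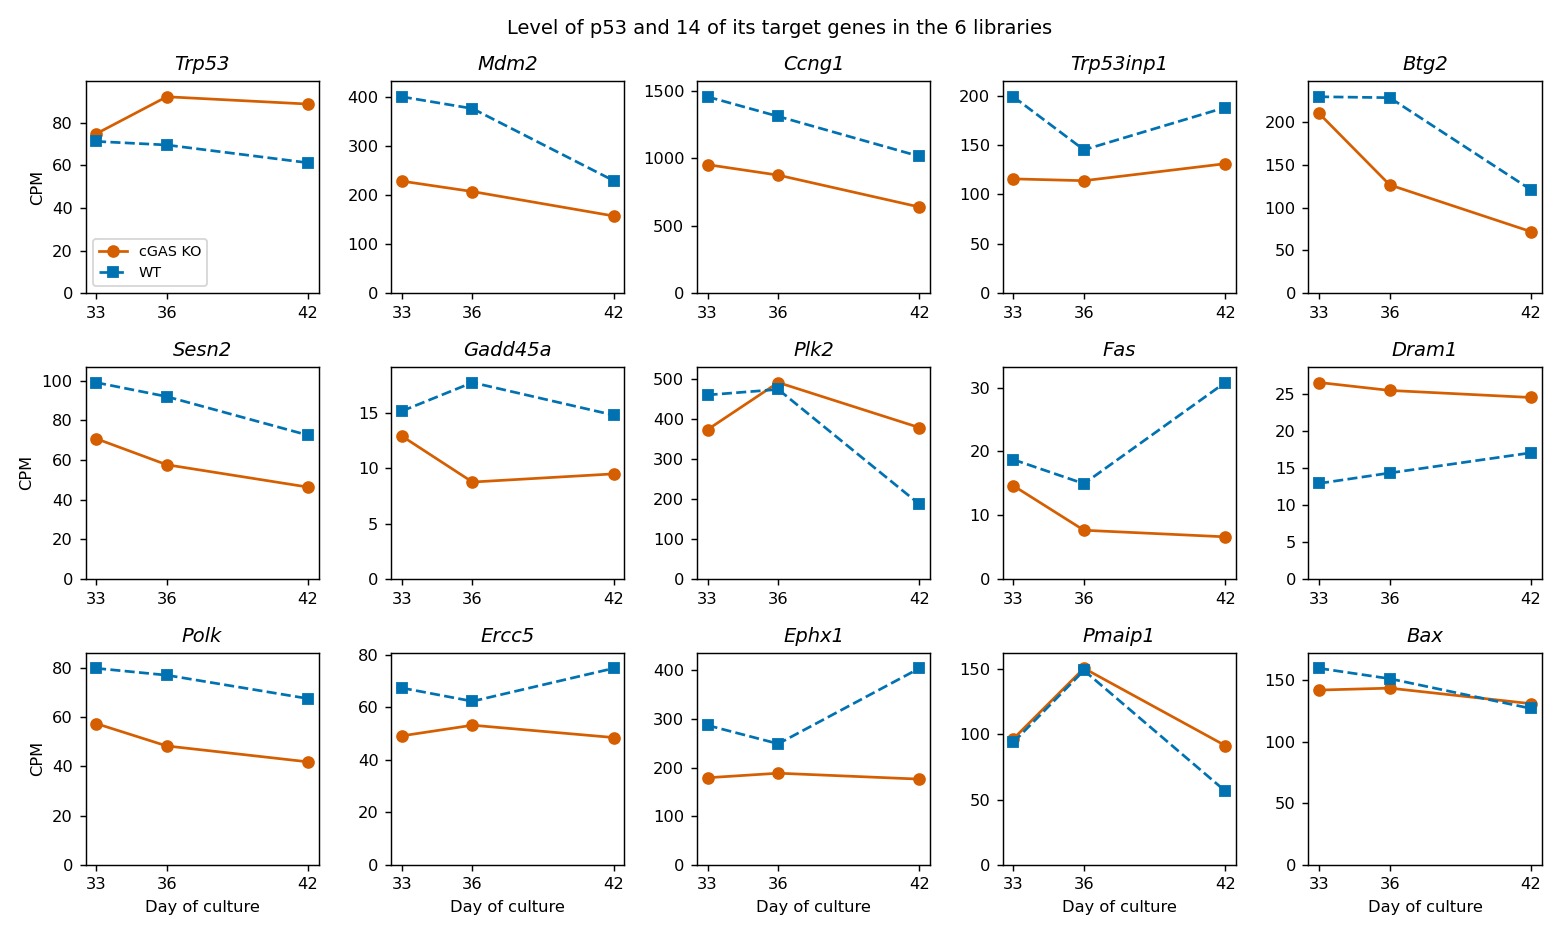
CPM (y axis, from 0, a separate scale in each panel) by day of culture (x axis) for Trp53 and 14 targets, with KO as circles and solid lines and WT as squares and dashed lines, 1 library per point. Mdm2, Ccng1 and Sesn2 ran lower in KO on each day and were lower on later days in both genotypes, while Dram1 ran higher in KO, at 24.6 to 26.6 CPM against 12.9 to 17.1 CPM.

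Of the growth arrest genes, none passed edgeR's quasi-likelihood test for genotype. Sesn2 and Gadd45a were the lowest relative to WT. Sesn2 (chr4:132492032-132510501, minus strand), a sestrin that senses leucine and inhibits mTORC1, was at 70.7, 57.6 and 46.3 CPM in KO cells on days 33, 36 and 42, against 99.0, 91.9 and 72.5 CPM in WT cells. The libraries did not overlap, with KO day 33 just below WT day 42. Its log2 fold change was -0.59 ± 0.19, with an adjusted p of 0.102, 0.0279 with day as a factor and 0.0292 by DESeq2.

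Gadd45a (chr6:67035096-67037457, minus strand), a stress sensor that binds PCNA and Cdk1, was at 12.9, 8.76 and 9.50 CPM in KO cells, against 15.2, 17.8 and 14.8 CPM in WT cells. The gap was small on day 33 and largest on day 36, where the KO library was 2-fold lower or more. On the log2 scale KO over WT was -0.61 ± 0.17. The adjusted p was 0.0779 by edgeR, 0.0966 by edgeR with day as a factor and 0.0208 by DESeq2. Part of its exons overlaps a gene on the opposite strand, E230016M11Rik, by 317 bases. That gene held 86.4 counts in all 6 libraries against 3045 for Gadd45a.

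Btg2 (chr1:134075170-134079120, minus strand), an antiproliferative co-regulator of mRNA deadenylation, was at 210.2, 127 and 72.04 CPM in KO cells, against 229.6, 229 and 121 CPM in WT cells. Both genotypes ended far below where they began, KO stepwise and WT only after day 36, so that the groups overlapped. Its log2 fold change was -0.50 ± 0.42 (adjusted p = 0.494).

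The polo-like kinases Plk2 and Plk3 were set apart by a single library, WT day 42. Plk2 (chr13:110395046-110400844, plus strand), which is among the 5 highest of the set per length with 80.3 RPKM in KO and 67.2 RPKM in WT, was at 373.5, 491 and 378 CPM in KO cells, against 460.0, 474 and 187 CPM in WT cells. Its log2 fold change of 0.15 ± 0.35 became -0.17 with WT day 42 left out. Plk3 (chr4:117128655-117133963, minus strand) was at 29.2, 32.1 and 19.5 CPM in KO cells, against 28.0, 31.6 and 11.4 CPM in WT cells. Its log2 fold change of 0.18 became -0.15 without that library.

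Sesn1 (chr10:41809935-41908424, plus strand), a second sestrin, was at 13.9, 16.7 and 19.8 CPM in KO cells, against 14.3, 11.6 and 26.2 CPM in WT cells. It overlapped between genotypes, and the sign of its fold change of -0.05 turned under several other settings. Ckap2 (chr8:22168160-22185819, minus strand), a spindle protein and thus a cell division gene as well as a p53 target, was at 51.8, 58.6 and 47.7 CPM in KO cells, against 45.9, 39.1 and 47.1 CPM in WT cells, with a log2 fold change of 0.26 (adjusted p = 0.211). Among 16 general cell division genes, 14 (87.5%) rose in KO cells, against 4.07% of all genes tested, with a median log2 fold change of 0.77. The part of cell division in the level of Ckap2 was not tested.

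Of the cell death and autophagy genes, Dram1 rose and the other 10 did not pass. Dram1 (chr10:88322804-88379080, minus strand) encodes a lysosomal membrane protein through which p53 is known to promote autophagy. It was at 26.6, 25.5 and 24.6 CPM in KO cells on days 33, 36 and 42, against 12.9, 14.3 and 17.1 CPM in WT cells. The KO libraries lay close together and above all WT libraries, and the gap narrowed with time as WT drew nearer. The log2 fold change was 0.79 ± 0.12 (adjusted p = 0.0177, edgeR's quasi-likelihood test). Leaving out KO day 36, KO day 42, WT day 33 or WT day 36 gave adjusted p-values of 0.0549 to 0.0881 and fold changes of 0.70 to 0.82. Dram1 also did not pass with day 33 or day 36 left out of both genotypes.

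Fas (chr19:34290666-34327772, plus strand), the death receptor, had the largest negative fold change of the set. It was at 14.6, 7.65 and 6.61 CPM in KO cells on days 33, 36 and 42, against 18.7, 14.9 and 30.8 CPM in WT cells. The 2 genotypes were near each other on day 33 and ended furthest apart on day 42, since KO was lower there than on day 33 and WT higher. The log2 fold change of -1.16 ± 0.39 did not pass edgeR's quasi-likelihood test (adjusted p = 0.118, and 0.151 with day as a factor) and passed DESeq2 (0.0191).

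The genes of the mitochondrial death pathway did not separate the genotypes. Bax (chr7:45461697-45466898, minus strand), the pore-forming Bcl-2 family protein and one of the 5 highest of the set at 86.4 RPKM in KO and 85.4 RPKM in WT, was at 142, 143 and 131 CPM in KO cells, against 159, 151 and 127 CPM in WT cells. On the log2 scale KO over WT was -0.07 ± 0.11. Apaf1, the scaffold of the apoptosome, had 0.02 ± 0.10, and the BH3-only genes Bbc3 (PUMA) and Pmaip1 (NOXA) had 0.08 ± 0.25 and 0.18 ± 0.37. Pmaip1 (chr18:66458533-66465565, plus strand) was at 96.6, 151 and 91.5 CPM in KO cells, against 94.0, 149 and 56.6 CPM in WT cells, so that both genotypes peaked on day 36 and parted on day 42. With WT day 42 left out the fold changes of Bbc3 and Pmaip1 became -0.16 and -0.10.

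Phlda3 (chr1:135766119-135769136, plus strand), a PH-domain inhibitor of Akt, was at 129, 139 and 125 CPM in KO cells, against 137, 144 and 179 CPM in WT cells, with a log2 fold change of -0.23 (adjusted p = 0.279). Eda2r, a receptor of the TNF receptor family, is X-linked (chrX:97333840-97377216, minus strand) and lay at 84.6 to 89.1 CPM in KO and 90.9 to 115 CPM in WT, with a fold change of -0.29 (adjusted p = 0.142). Aen, the apoptosis-enhancing nuclease, was lower in each KO library by a small margin, at 94.2 to 110.5 CPM in KO against 110.8 to 113 CPM in WT. Tnfrsf10b, the TRAIL death receptor, and Ei24, a protein of the endoplasmic reticulum, had fold changes of -0.16 and -0.15 with overlapping libraries.

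Of the DNA repair genes, all 5 had negative fold changes and Polk and Ercc5 passed. Polk (chr13:96480690-96542579, minus strand) encodes DNA polymerase kappa, which copies past damaged bases. It was at 57.4, 48.3 and 41.8 CPM in KO cells on days 33, 36 and 42, against 79.9, 77.1 and 67.5 CPM in WT cells. The groups did not overlap, and the log2 difference was -0.48, -0.67 and -0.69 on days 33, 36 and 42. Its log2 fold change was -0.61 ± 0.14 (adjusted p = 0.0454, edgeR's quasi-likelihood test). Its call was lost with no filter on low counts (adjusted p = 0.0503), and with KO day 36, KO day 42, WT day 33 or WT day 36 left out (adjusted p = 0.110 to 0.170). The call was also lost with any single day left out of both genotypes.

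Ercc5 (chr1:44147744-44181260, plus strand) encodes the XPG endonuclease of nucleotide excision repair. It was at 49.1, 53.1 and 48.4 CPM in KO cells, against 67.3, 62.3 and 74.8 CPM in WT cells. The libraries did not overlap, and the day 36 libraries were the closest. The log2 fold change was -0.44 ± 0.10 (adjusted p = 0.0435, edgeR's quasi-likelihood test). The call was lost with library totals in place of TMM factors (adjusted p = 0.125) and with day as a factor (0.0776). It was also lost with any library but WT day 42 left out (0.0620 to 0.152), and with any single day left out of both genotypes.

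The damage sensors of the same pathway were near equal between genotypes. Xpc, which recognises lesions, was at 14.8 to 17.4 CPM in KO and 15.9 to 17.9 CPM in WT, and Ddb2, which binds ultraviolet damage, at 1.41 to 2.33 CPM in KO and 1.60 to 2.29 CPM in WT. Both had log2 fold changes of -0.08. Ddb2 is uncertain, since 441 bases of its exons overlap Acp2 on the opposite strand, which held 12972 counts against 435 for Ddb2. Rrm2b, the p53-dependent subunit of ribonucleotide reductase, was at 11.1 to 13.8 CPM in KO and 11.6 to 16.04 CPM in WT, with a fold change of -0.25 (adjusted p = 0.377).

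Of the metabolic genes, Ephx1 (chr1:180976210-181020904, minus strand) encodes microsomal epoxide hydrolase, which detoxifies epoxides. It was at 179, 188 and 176 CPM in KO cells on days 33, 36 and 42, against 287, 249 and 404 CPM in WT cells. KO cells were steady and below all WT libraries, and WT day 42 stood far above the other WT days. On the log2 scale KO over WT was -0.79 ± 0.18 (adjusted p = 0.0474, edgeR's quasi-likelihood test), and per length Ephx1 averaged 52.4 RPKM in KO and 86.2 RPKM in WT. The call was lost with library totals in place of TMM factors (adjusted p = 0.0816), with day as a factor (0.0655) and with WT day 33 or any KO library left out (0.0866 to 0.165). It was also lost with any single day left out of both genotypes. Fdxr, the mitochondrial ferredoxin reductase that p53 also controls, went the other way without passing, at 4.84 to 5.59 CPM in KO and 3.83 to 4.89 CPM in WT (log2 fold change 0.25, adjusted p = 0.349).

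A DESeq2 fit of the same 6 libraries called 10 of the 32 genes (31.2%, against 16.6% of all genes). Of these, Dram1 was higher (3.12%, against 7.55%) and 9 were lower (28.1%, against 9.02%), namely Ccng1, Ephx1, Ercc5, Fas, Gadd45a, Mdm2, Polk, Sesn2 and Trp53inp1. The edgeR fit with day as a factor called 5 (15.6%, against 7.76% of all genes), with Dram1 higher (3.12%, against 3.32%) and Ccng1, Mdm2, Polk and Sesn2 lower (12.5%, against 4.44%). Dram1 and Polk were called by each of these and by the fit with library totals only, which called no others of the set (6.25%, against 9.62% of all genes; 3.12% against 5.93% higher and 3.12% against 3.68% lower). At an unadjusted p under 0.05 the edgeR fit without day had 2 of the 32 genes higher (6.25%, against 12.8% of all genes tested) and 10 lower (31.2%, against 14.5%), together 37.5% against 27.3%.

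The next question was how the genes changed with time in culture, taking day 42 against day 33 over both genotypes, with genotype in the model. It uses the same 6 libraries as the comparison of genotypes, less those of day 36 in the contrast. None of the 32 genes passed edgeR's quasi-likelihood test, and neither did any of the 17233 genes, while 7 of the 32 (21.9%) had an unadjusted p under 0.05 against 11.7% of all genes. Of these 7, Mdm2, Ccng1, Btg2, Plk3, Sesn2 and Polk were lower on day 42 (18.8%, against 6.14% of all genes) and Sesn1 was higher (3.12%, against 5.57%). DESeq2 called 5 of them lower (Btg2, Ccng1, Mdm2, Plk3 and Sesn2), 15.6% of the set against 1.22% of all genes called lower, 0.493% called higher and 1.72% called either way. The macrophage sums given above were also lowest on day 42 in both genotypes, and their part in these differences was not tested. With 2 libraries per day the call depends on the tool, and limma-voom, like edgeR, called 0.

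Btg2 had the largest difference over time, with log2 values of -1.54 in KO and -0.92 in WT between days 42 and 33, and -1.25 ± 0.20 over both (adjusted p = 0.316 by edgeR and 1.6e-05 by DESeq2). For Mdm2 the values were -0.54 in KO and -0.80 in WT (-0.67 ± 0.13 over both; adjusted p = 0.316 by edgeR and 0.0032 by DESeq2). For Ccng1 they were -0.58 in KO and -0.52 in WT, and for Sesn2 -0.61 in KO and -0.45 in WT. Each of these genes was lower on day 42 in both genotypes. For Plk3 the log2 values were -0.58 in KO and -1.30 in WT, and the WT difference arose after day 36.

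Genes that differed between the days in both genotypes stand beside others that differed mainly in one. Of 30 genes with at least 5 CPM in these comparisons, 19 (63.3%) had the same sign in KO and WT, against 58.0% of 11430 genes, and 14 (46.7%) were lower in both, against 29.8% of those genes. Plk2 differed by 0.02 in KO and by -1.30 in WT, and Fas by -1.14 in KO and 0.72 in WT. Bbc3 and Pmaip1 differed by -0.10 and -0.08 in KO and by -0.76 and -0.73 in WT. With 1 library per genotype and day these differences between genotypes could not be tested.

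**Figure D4:**
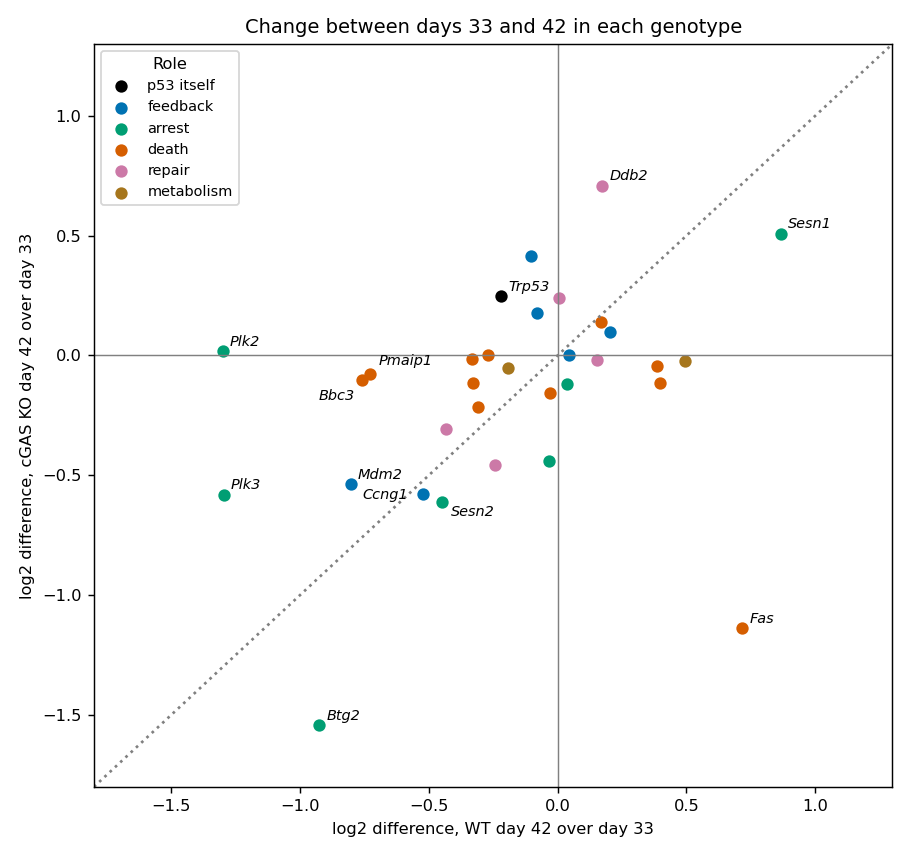
log2 difference in CPM between day 42 and day 33 in KO cells (y axis) against the same in WT cells (x axis) for the 32 genes, coloured by role, with the dotted line where both are equal. Btg2, Mdm2, Ccng1, Sesn2 and Plk3 are below 0 on both axes, Plk2 is near 0 in KO and at -1.30 in WT, and Fas is at -1.14 in KO and 0.72 in WT.

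Between single libraries, genes of the set that differed at least 2-fold and reached 5 CPM were few. On day 33 Dram1 was higher in KO (1 of 31 genes measured, against 2.48% of all genes higher), and on day 36 Gadd45a was lower (against 4.67% lower). On day 42 Plk2 was higher in KO (against 3.03%) and Ephx1 and Fas were lower (against 6.5%). Within KO cells, no gene of the set passed between days 33 and 36 (against 3.42% of all genes either way) or between days 36 and 42 (against 0.896%), and Btg2 and Fas were lower on day 42 than on day 33 (against 2.62%). Within WT cells, no gene passed between days 33 and 36 (against 1.32%), while between days 36 and 42 Fas and Sesn1 were higher (against 4.37%) and Plk2, Plk3 and Pmaip1 lower (against 2.48%). Against day 33, Plk2 and Plk3 were lower in WT cells on day 42 (against 2.07%). In WT cells the 2-fold differences of these genes thus appeared after day 36.

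Genes around p53 give context. Of 30 listed regulators and cofactors of p53, 28 could be tested, and Chek1 rose while Cdkn2a and Pml fell, with a median log2 fold change of 0.11. The 1 gene higher is 3.57% of the list, against 4.07% of all genes, and the 2 lower are 7.14%, against 4.65%. DESeq2 called 3 of the list higher and 2 lower, where it called 7.55% of all genes higher and 9.02% lower. Cdkn2a, which encodes Arf, the inhibitor of Mdm2, and the cell cycle inhibitor p16, was at 40.2, 44.2 and 37.6 CPM in KO cells on days 33, 36 and 42, against 109, 100.3 and 84.8 CPM in WT cells (log2 fold change -1.27 ± 0.12, adjusted p = 0.0082, edgeR's quasi-likelihood test). These are levels of the gene as a whole, and its Arf and p16 transcripts were not separated. Pml, which forms the nuclear bodies in which p53 is modified, was at 51.5 to 55.4 CPM in KO and 75.6 to 100.1 CPM in WT (-0.72 ± 0.12, adjusted p = 0.0203). Chek1, a checkpoint kinase and itself a gene of dividing cells, was at 15.0 to 19.7 CPM in KO and 9.997 to 10.8 CPM in WT (0.73 ± 0.13, adjusted p = 0.0242).

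Of 37 further targets, 35 could be tested, and Lif and Perp rose while Kitl and Cdkn1a fell, with a median log2 fold change of -0.15. That is 5.71% of the list in each direction, against 4.07% of all genes higher and 4.65% lower. By DESeq2, 2 of the list were higher and 5 lower, where it called 7.55% of all genes higher and 9.02% lower. Cdkn1a, the p21 inhibitor through which p53 arrests the cell cycle, was at 409, 328 and 269 CPM in KO cells, against 579, 592 and 501 CPM in WT cells (-0.73 ± 0.17, adjusted p = 0.0478), a fold change close in size to those of Mdm2 and Ccng1. Perp, a membrane protein of p53-dependent death and of desmosomes, was at 71.8, 137 and 145 CPM in KO cells, against 46.9, 37.3 and 43.2 CPM in WT cells (1.48 ± 0.27, adjusted p = 0.0277). Lif, a cytokine, was at 75.4 to 109 CPM in KO and 15.2 to 23.2 CPM in WT (2.28 ± 0.22, adjusted p = 0.0086), and Kitl, the ligand of the Kit receptor, at 4.76 to 5.33 CPM in KO and 31.9 to 60.7 CPM in WT (-3.18 ± 0.25, adjusted p = 0.0064).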

How the data were processed

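Poly(A)-selected, stranded RNA libraries (TruSeq) were made from total RNA of bulk MEF populations, per the labels' protocols. The files deposited by the authors hold estimated counts for genes and transcripts (fractional, not normalized) and RPKM values beside them, per the file headers. Bowtie2 2.2.1, limma 3.18.13 and the build mm10 are named in the submitters' processing notes, with no roles. Which program counted the reads, against which annotation and with which strand setting, is not given in the sources used here.

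The 4 columns of each genotype and day were compared first. Over 12385 to 13738 genes with at least 80 counts, chi-square per degree of freedom between them averaged 0.832 to 0.843, against 11.7 to 60.8 between groups. They were therefore summed to 1 library, which gave 6 libraries of 25651250 to 48717439 counts, and sums were rounded to whole numbers. Numbers shared between groups carried no pairing.

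Genotypes were compared with edgeR 4.0.16 in R 4.3.3 (TMM factors, filterByExpr, robust quasi-likelihood test, Benjamini-Hochberg adjustment over 17233 genes, threshold 0.05), as were days 42 and 33 with genotype in the model. DESeq2 1.42.0 and limma-voom (limma 3.58.1) were alternatives, beside other scalings, filters, omitted libraries or days, and the 24 columns as replicates with and without a replicate block. The fits were tested on simulated data. Between single libraries, log2 CPM (prior count 2) differing by at least 2-fold with 5 CPM in the higher library was counted, with no test; day 42 over day 33 within a genotype was added after the data were seen. RPKM served for levels between genes and for transcript shares, for which transcripts listed again with equal values were used once (5334). Precision is limited by the number of libraries. Counting error adds to this most in the genes with the fewest counts over the 6 libraries, Ddb2 (435) and Fdxr (1054), and its share was not computed.

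The 32 genes and all lists were chosen with earlier results of these data known. Values are given in full for Trp53, Mdm2 and Mdm4, for genes called in any of the 3 genotype fits or past the 2-fold rule, and for the 5 highest by RPKM; other lists are represented by up to 4 called genes. Coordinates are from GENCODE M21 (GRCm38). Promoters are from RefSeq (GRCm38.p6); Zmat3, Trp53inp1, Pmaip1, Tnfrsf10b, Rrm2b, Ddb2 and Xpc had no entry.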

Additional observations from a re-analysis of the deposited data

Results flagged for a closer look

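Fas was singled out because its libraries moved in opposite directions in the 2 genotypes between days 33 and 42, by -1.14 in KO cells and 0.72 in WT cells on the log2 scale. The KO library was at 6.61 CPM on day 42 and 14.6 CPM on day 33, and the WT library at 30.8 CPM on day 42 and 18.7 CPM on day 33. The difference between the genotypes was not tested, since there was 1 library per genotype and day.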

How the results depend on the processing

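Over up to 22 alternatives for each of the 32 genes, 576 values kept their direction and their side of the threshold, 61 passed it newly, 36 no longer passed it and 29 changed sign. Most of the 61 came from the fits with the 24 columns as replicates, described below, which called 27 of the 32 genes each. Of all genes tested, 1503 were called for genotype, against 2855 by DESeq2, 429, 3 and 539 without day 33, 36 or 42, 24 to 1811 with 1 library left out (lowest with KO day 36 left out, next 68 with KO day 42 and 254 with WT day 33) and 1415 to 1454 with 1 numbered column left out. Of the 32 genes, 4 were called, against 10 by DESeq2, 2 with library totals only, 0 without day 33 or day 36, 2 without day 42, 0 to 6 with 1 library left out and 2 to 4 with 1 column left out. With column 1 left out, 1 gene was called higher and 1 lower. Library totals moved the median of all genes by 0.114 on the log2 scale and the share of higher calls to 61.7%, against 46.6%. For time, 0 of the 32 genes were called, against 5 by DESeq2 and 0 with any 1 of the 4 libraries of days 33 and 42, or any 1 numbered column, left out.

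With the 24 columns as replicates, 11107 genes and 27 of the 32 were called for genotype (11103 and 27 with the replicate block), and 27 for time with or without the block. Those p-values measure the sampling noise of 1 library. Deviations of columns with the same number correlated at -0.032 to 0.056 over 60 pairs, so the samples share only a number. The block changed no call among the 32 genes.

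Values that changed sign were all of genes that did not pass. With library totals only they were Zmat3 0.066, Sesn1 0.061, Bax 0.043, Ddb2 0.041 and Xpc 0.036. Without all of day 42 they were Plk2 -0.11, Bbc3 -0.11 and Sesn1 0.24, and without day 33 Ddb2 0.11 and Xpc 0.011. Sesn1 was also 0.053 with limma-voom, 0.021 with day as a factor and 0.023 with the 24 columns, with or without the replicate block. With 1 library or numbered column left out the value ran from -0.17 to 0.36 for Plk2, -0.15 to 0.45 for Plk3, -0.16 to 0.29 for Bbc3, -0.10 to 0.59 for Pmaip1, -0.27 to 0.38 for Sesn1 and -0.27 to 0.095 for Ddb2. It ran from -0.016 to 0.20 for Mdm4, -0.0017 to 0.10 for Ppm1d and -0.040 to 0.085 for Apaf1. For Plk2, Plk3, Bbc3, Pmaip1 and Sesn1 the turn came with WT day 42 left out. The cause was not tested. Of the transcript shares, 2 reached the smallest exact p over all transcripts and 0 over leading transcripts only, where fewer were tested. With 3 libraries per genotype, differences smaller than the spread over the days are not detectable here.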
